A study of Mus musculus with 7 samples.

Results

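Heme breakdown and iron handling were followed through 10 genes in the lungs of bleomycin-challenged mice, with and without hyperbaric oxygen (HBO). The genes were chosen by name for their roles, out of the 55401 genes of the count table, and selected on the measured difference in Hmox1, whose lower level in the HBO-exposed mice was already known. All 10 passed the filter on low counts, which left 17465 genes. Because the comparison of the groups entered the choice, the differences of these 10 genes are given as a description with no test.

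RNA was sequenced from right lung lobes of 4 BLM mice and 3 BLM+HBO mice, all male C57BL/6 animals aged 6 to 8 weeks. Both groups had received bleomycin, an antibiotic that injures the lung and is followed by scarring, and all lungs were taken on day 21. BLM+HBO mice breathed oxygen in a pressure chamber at 2.5 ATA for 90 min per day on 14 days, starting on day 7. For BLM mice, the records describe time in the chamber without pressurised oxygen, whereas the Supplementary methods describe no treatment. No unchallenged lungs were analysed here, so a value cannot be placed against healthy tissue, and whole lobes mix many cell types.

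Heme released from hemoglobin and from dying cells is cut open by heme oxygenase into biliverdin, carbon monoxide and free iron, and biliverdin reductase turns biliverdin into bilirubin. The freed iron is stored inside ferritin or exported through ferroportin, and cells take up new iron through the transferrin receptor. Haptoglobin captures free hemoglobin in plasma, and the macrophage receptor CD163 takes up the complex, which makes macrophages a main site of this recycling in tissue.

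Ferritin, ferroportin and the transferrin receptor are also controlled after transcription, through the iron-responsive element, a short RNA hairpin bound by iron regulatory proteins when iron is scarce. Binding near the start of a message blocks its translation, and binding in the 3′ untranslated region (UTR) protects the message from decay. The hairpins are shown because they divide the members into those where iron can act on translation and Tfrc, where it can act on the amount of RNA that sequencing measures. Protein-coding transcripts of GENCODE vM21 were searched on their own strand for a bulged C, 5 stem bases, the loop CAGTGN with a last base other than G, and 5 bases that pair with the stem (G-U pairs allowed). The search matched 21 of 21875 genes in the 5′ UTR (0.096%) and 98 in the 3′ UTR (0.448%). In each 29-base stretch, written 5′ to 3′ as DNA, the capitals mark the 6 bases of the loop.
Fth1 5′ UTR: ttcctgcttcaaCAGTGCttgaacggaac
Ftl1 5′ UTR: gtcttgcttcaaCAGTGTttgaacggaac
Slc40a1 5′ UTR: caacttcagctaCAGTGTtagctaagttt
Tfrc 3′ UTR, first site: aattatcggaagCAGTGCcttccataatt
Tfrc 3′ UTR, second site: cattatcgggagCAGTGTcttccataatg
Tfrc 3′ UTR, site 3: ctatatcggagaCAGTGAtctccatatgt
Tfrc 3′ UTR, site 4: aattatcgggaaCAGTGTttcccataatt
All of these sites lie in exons, and positions are on GRCm38. The Fth1 site is at chr19:9982732-9982760 on the plus strand, the Ftl1 site at chr7:45459779-45459807 on the minus strand, and the Slc40a1 site at chr1:45925465-45925493 on the minus strand. The 4 Tfrc sites lie on the plus strand at chr16:32631219-32631247, chr16:32631598-32631626, chr16:32631663-32631691 and chr16:32631710-32631738. Hmox1, Hmox2, Blvra, Blvrb, Hp and Cd163 held 0 matches. A match describes the letters and does not show that a protein binds there.

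**Figure D1:**
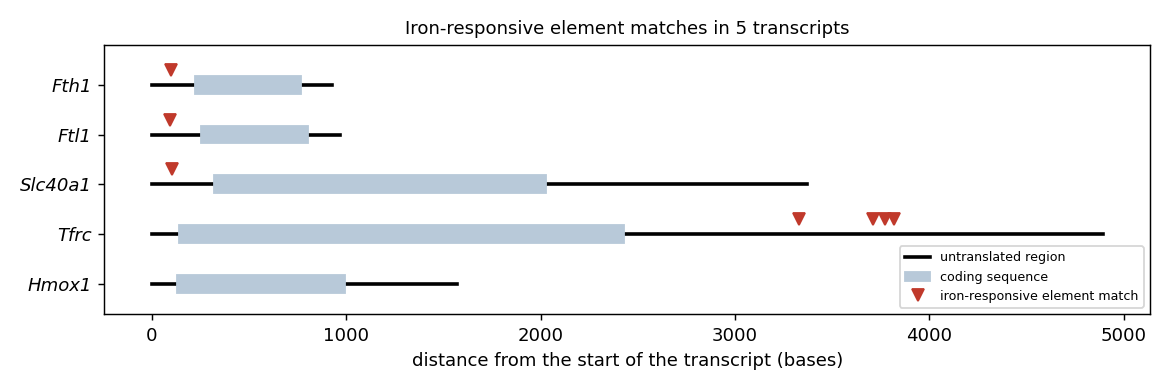
Positions of the hairpin matches along the transcripts of Fth1, Ftl1, Slc40a1 and Tfrc, with the horizontal axis in bases from the transcript start and the coding part drawn as a thicker box, and with the Hmox1 transcript, which held 0 matches, for comparison. Fth1, Ftl1 and Slc40a1 each had 1 match before the coding part, and Tfrc had 4 after it.

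The counts summed to between 18436336 and 19002242 reads in BLM mice and to between 18157161 and 26365969 in BLM+HBO mice. Levels are CPM, read counts scaled to library sizes normalized by TMM, and fold changes are from edgeR with BLM as the reference. Over the tested genes the median log2 fold change was 0.01, on a scale that TMM centres on the bulk of the genes. At an unadjusted P below 0.05 and a fold change above 1.5, edgeR's quasi-likelihood test called 1098 genes (6.29%), of which 504 were lower (2.89%) and 594 higher (3.40%) in BLM+HBO. At an adjusted P below 0.05, edgeR and limma-trend called 0 genes, edgeR called 1861 at an unadjusted P below 0.05 and any fold (10.7%, of which 968 or 5.54% lower), and DESeq2 called 128 after adjustment. The number called at the first thresholds fell to 659 without BLM+HBO 1 and rose to 1914 without BLM+HBO 2. All 14 tested heart muscle markers had a higher mean in BLM+HBO, 12 of them past both thresholds, with a summed level of 77.1 to 209 CPM in BLM and 178 to 777 CPM in BLM+HBO, and their part in the results was not tested.

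Hmox1, the inducible heme oxygenase, stood apart between the groups. It was read at 216, 211, 119 and 133 CPM in BLM mice 1 to 4 and at 64.8, 78.2 and 62.8 CPM in BLM+HBO mice 1 to 3. Every BLM mouse was above every BLM+HBO mouse, and BLM 1 and BLM 2 were well above the other BLM mice. The BLM mean was 170 ± 50.9 CPM (SD, n = 4), and that of BLM+HBO was 68.6 ± 8.36 CPM (SD, n = 3). This was a log2 fold change of -1.31 (SE 0.22), with a level 2.47-fold higher in BLM. Leaving out each mouse in turn gave log2 fold changes between -1.44 and -1.17. The gene (ENSMUSG00000005413.8, chr8:75093621-75100589, plus strand) was counted with at least 1217 reads in every mouse. In bulk tissue, fewer cells of a type and less RNA per cell cannot be told apart.

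Hmox2, the constitutive heme oxygenase that carries out the same reaction, was almost level. Its values were 53.1, 59.6, 56.2 and 54.7 CPM in BLM and 56.3, 52.7 and 46.5 CPM in BLM+HBO, and the groups overlapped. The log2 fold change was -0.11 (SE 0.10). Among these genes Hmox2 varied least within BLM, with a coefficient of variation of 4.99% against 30.0% for Hmox1. Hmox2 (ENSMUSG00000004070.15, chr16:4726361-4766742) shares 40.2% of its exon bases with exons of Cdip1 on the opposite strand. The counting did not use the strand and leaves out reads that overlap several genes, so its level is uncertain. Hmox1 shared 0 exon bases with another gene.

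The biliverdin reductase genes differed little. Blvra, which reduces biliverdin to bilirubin, was at 32.2, 34.7, 40.5 and 27.9 CPM in BLM and 26.5, 34.4 and 27.8 CPM in BLM+HBO. Blvrb, which encodes an enzyme that reduces flavins, was at 33.2, 34.8, 37.6 and 27.3 CPM in BLM and 30.3, 32.4 and 28.3 CPM in BLM+HBO. The groups overlapped for both genes, with log2 fold changes of -0.19 (SE 0.15) for Blvra and -0.13 (SE 0.13) for Blvrb. BLM 3 was the highest mouse and BLM 4 the lowest BLM mouse for both, an order that Hmox1 did not show.

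The ferritin subunits had the highest mean CPM of the members in BLM, while in BLM+HBO the mean of Hp lay between them. Fth1, the heavy subunit that oxidises iron for storage, was at 2838, 3660, 2847 and 2635 CPM in BLM and 2135, 2276 and 2046 CPM in BLM+HBO. The groups did not overlap, although the log2 fold change of -0.48 (SE 0.16) was below the fold threshold, at a level 1.39-fold higher in BLM. Ftl1, the light subunit that helps form the iron core, was at 1014, 1379, 1231 and 1093 CPM in BLM and 842, 1007 and 1072 CPM in BLM+HBO. These groups overlapped, because BLM+HBO 3 was above BLM 1, and the log2 fold change was -0.28 (SE 0.15). BLM 2 was the highest mouse for both subunits. For Ftl1, 90.6% of the 50-base windows of the transcript also occur in transcripts of other genes, 17 in number and many of them pseudogenes, against 6.59% for Fth1. Reads that map to several places were left out of the counts, so the Ftl1 level is uncertain.

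Slc40a1, the iron exporter ferroportin, was lower in BLM+HBO with overlapping groups. It was at 40.4, 38.4, 20.1 and 23.1 CPM in BLM and at 19.0, 22.6 and 13.1 CPM in BLM+HBO. The higher values again came from BLM 1 and BLM 2, while BLM 3 lay between BLM+HBO mice. The log2 fold change was -0.75 (SE 0.28), with a level 1.68-fold higher in BLM. It ranged from -0.93 without BLM+HBO 2 to -0.56 without BLM+HBO 3, and Slc40a1 no longer passed both thresholds without BLM 1, without BLM 2 or without BLM+HBO 3.

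Tfrc, the transferrin receptor that imports iron, had the higher mean in BLM+HBO. It was at 47.4, 74.7, 51.3 and 57.8 CPM in BLM and at 106, 49.8 and 76.7 CPM in BLM+HBO. BLM+HBO 1 was the highest mouse, BLM+HBO 2 lay within the BLM range, and BLM+HBO 3 was just above it. The log2 fold change was 0.42 (SE 0.24), and it moved to 0.13 without BLM+HBO 1 and to 0.65 without BLM+HBO 2, where Tfrc passed both thresholds. Among the members with a match to the iron-responsive element, Fth1, Ftl1 and Slc40a1 were lower and Tfrc higher in BLM+HBO by mean. Of these, only Fth1 had groups that did not overlap. Alas2, the red cell enzyme of heme synthesis and no member, also matched in its 5′ UTR. The mean of Alas2 was higher in BLM+HBO (log2 fold change 0.43, SE 0.30), opposite to the members with a 5′ match. The direction of the other genes that the search matched was not examined.

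Of the hemoglobin scavenging genes, Cd163 had a lower mean in BLM+HBO, while Hp differed little in most mice. Cd163, the macrophage receptor for haptoglobin bound to hemoglobin, was at 50.9, 43.9, 25.8 and 14.5 CPM in BLM and at 5.64, 20.2 and 9.71 CPM in BLM+HBO. BLM 4 was below BLM+HBO 2, so the groups overlapped, and the BLM mice differed among themselves by 3.50-fold from lowest to highest. The log2 fold change was -1.51 (SE 0.49), with a level 2.85-fold higher in BLM, and it ranged from -2.13 without BLM+HBO 2 to -1.18 without BLM+HBO 1. Cd163 had the lowest count of any member, 106 reads in BLM+HBO 1.

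Hp, which encodes haptoglobin, was at 772, 955, 1020 and 961 CPM in BLM and at 869, 1001 and 1347 CPM in BLM+HBO. Only BLM+HBO 3 was above the BLM range, and without it the log2 fold change of 0.21 (SE 0.17) became 0.01. Hp RNA in the lung was at a similar level in most mice. Cd163 RNA varied more than that of any other member within both groups (coefficient of variation 49.2% in BLM and 63.4% in BLM+HBO). Neither haptoglobin in plasma nor the CD163 protein was measured here.

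**Figure D2:**
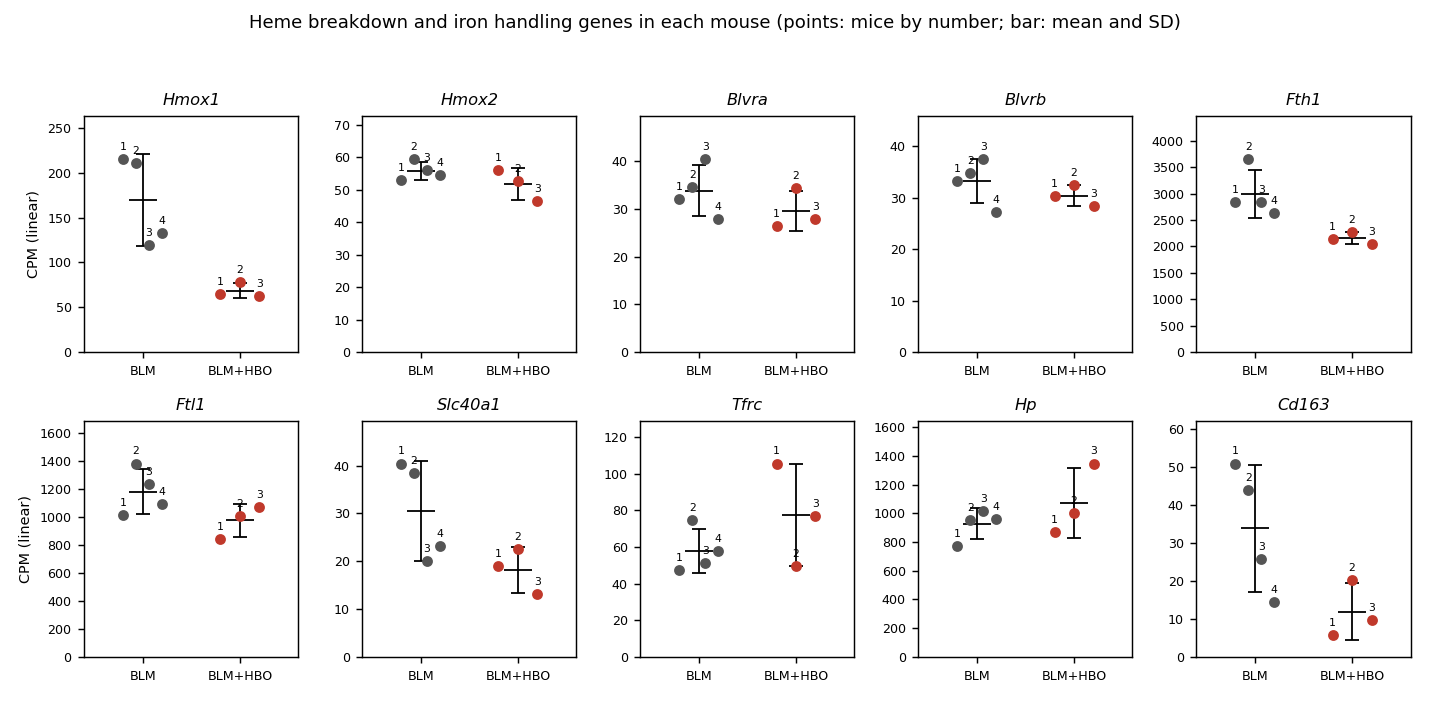
Level of each of the 10 genes in CPM (linear vertical axes from 0), with 1 point per mouse labelled by its number and a bar for the mean and SD of BLM (n = 4) and BLM+HBO (n = 3). The groups do not overlap for Hmox1 and Fth1, and BLM 1 and BLM 2 hold the highest values of Hmox1, Slc40a1 and Cd163.

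In all, 8 of the 10 genes had a lower mean and 2 a higher mean in BLM+HBO, and the median log2 fold change was -0.23. Hmox1, Slc40a1 and Cd163 passed both thresholds on the lower side, against 2.89% of all tested genes, and 0 passed on the higher side. The groups did not overlap for Hmox1 and Fth1, both on the lower side, against 8.77% of all tested genes (4.72% lower and 4.05% higher). Just inside the fold threshold of 1.5 was Slc40a1 at 1.68-fold, and just outside it was Fth1 at 1.39-fold. Since these differences were known when the genes were listed, the counts are not read against the background.

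**Figure D3:**
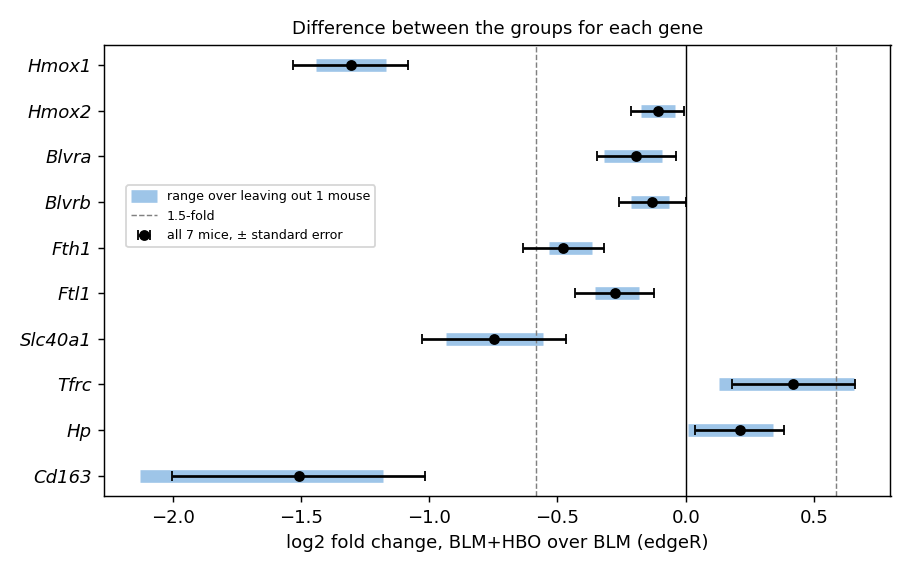
Log2 fold change of BLM+HBO over BLM from edgeR for each gene (point, with its standard error as the bar), with the range over leaving out each mouse in turn as a pale band and dashed lines at 1.5-fold. Hmox1 at -1.31 and Cd163 at -1.51 lie far to the left with their whole bands, while the band of Slc40a1 reaches from -0.93 to -0.56, across the line.

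Per kilobase of exon, the level in BLM was highest for Ftl1 at 880 ± 120 CPM per kb, Fth1 at 863 ± 131 and Hp at 577 ± 66.8 (SD, n = 4). Hmox1 followed at 96.9 ± 29.1 CPM per kb in BLM and 39.2 ± 4.78 CPM per kb in BLM+HBO. Hmox2 was read at 25.2 ± 1.26 and 23.4 ± 2.23 CPM per kb, which are low estimates. Reads in the 40.2% of its exon bases shared with Cdip1 were left out, while those bases stayed in the length. The order of Hmox1 and Hmox2 in BLM+HBO is therefore uncertain. Blvra was at 13.8 ± 2.16, Blvrb at 11.9 ± 1.56, Tfrc at 9.34 ± 1.95, Cd163 at 6.19 ± 3.04 and Slc40a1 at 3.39 ± 1.16 CPM per kb in BLM. On these counted exon lengths, Ftl1 and Fth1 did not differ beyond their spread, nor did any neighbours from Blvra downwards. In BLM+HBO, Tfrc at 12.5 ± 4.51 CPM per kb lay beside Blvra at 12.1 ± 1.74, and Cd163 at 2.17 ± 1.38 lay beside Slc40a1 at 2.02 ± 0.533. The counted exons span 9000 bases for Slc40a1, 3469 for Fth1, 2782 for Blvrb and 2446 for Blvra. Their transcripts searched above hold 3370, 929, 1028 and 1160 bases, so the levels of these genes per kilobase are low estimates. For Ftl1 the lengths are nearer each other, at 1340 and 968 bases. Its level is a low estimate for another reason, since 34.6% of its exon bases are shared with other genes and most of its windows occur elsewhere. The order of Fth1 and Ftl1 therefore depends on the length used and on the reads left out. The order from Blvra downwards depends on the length used.

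The mice could also be compared by pattern. Centred on its mean over the 7 mice, the log2 CPM of Slc40a1 differed from that of Hmox1 by 0.27 on average, the smallest difference among the other members, followed by Fth1 at 0.41 and Cd163 at 0.49. Tfrc was farthest, at 0.80, with Hp at 0.71. Among the other genes with a mean of at least 10 CPM, of 10936 ranked with no test, the most alike were Prune2, Pi15, Spsb1, Exoc3l2 and C5ar1, with differences between 0.20 and 0.22. C5ar1 encodes a complement receptor of myeloid cells and Spsb1 an adaptor of ubiquitin ligases. Their log2 fold changes were -0.95 for Prune2, -1.13 for Pi15, -0.90 for Spsb1, -0.84 for Exoc3l2 and -1.06 for C5ar1. The centring over the 7 mice keeps the difference between the groups in the pattern. Genes close to Hmox1 were therefore bound to be lower in BLM+HBO, and members with a higher mean there to lie far from it.

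Part of the macrophage markers were lower in BLM+HBO, as Hmox1, Slc40a1 and Cd163 were. Among all tested genes, 2.89% were called lower and 3.40% higher. Fibroblast markers were also lower, with 5 of 8 called, so the lower level was not particular to macrophage markers. Of 9 interstitial macrophage markers, 6 were lower in BLM+HBO at unadjusted P below 0.05 and a fold change above 1.5 (among them C1qa, C1qb, C1qc, Folr2 and Ms4a7) and 0 higher, with a median log2 fold change of -0.93, while Lyve1 was at 0.14 and Cx3cr1 at -0.11. Their summed level was 1271 to 2089 CPM in BLM and 944 to 1285 CPM in BLM+HBO. Of 8 lipid-associated macrophage markers, Spp1, Trem2 and Arg1 were lower and 0 higher at these thresholds, with Mmp12 at 0.51, a median of -0.37 and sums of 5221 to 6392 and 1837 to 4952 CPM. The largest part of these sums was Spp1, with a mean of 4232 CPM in BLM and 1584 CPM in BLM+HBO. Of 8 tested alveolar macrophage markers, Marco and Chil3 were lower and Krt79 higher at these thresholds, but 5 had a higher mean in BLM+HBO and the median was 0.16, with sums of 725 to 2134 and 675 to 860 CPM. Chil3 was the largest part of the latter sums, with a mean of 1014 CPM in BLM and 486 CPM in BLM+HBO. The lists held 0 markers without a read in all mice, edgeR called 0 of these genes after adjustment where DESeq2 called 2 interstitial and 1 lipid-associated marker, and their part in the results of Hmox1, Slc40a1 and Cd163 was not tested.

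The complement genes C1qa, C1qb and C1qc, which tissue macrophages express strongly, gave a common scale, chosen after the values were seen. Their summed level was 1345, 939, 1061 and 754 CPM in BLM and 335, 764 and 420 CPM in BLM+HBO. BLM 4 was just below BLM+HBO 2, so the groups overlapped. Per 100 CPM of this sum, Hmox1 was at 16.1, 22.5, 11.2 and 17.6 CPM in BLM, at 19.3 CPM in BLM+HBO 1 and at 10.2 CPM in BLM+HBO 2, with BLM+HBO 3 between them. On this scale the groups overlapped, with means of 16.8 ± 4.64 and 14.8 ± 4.54. Slc40a1 was at 3.01 ± 0.899 in BLM and 3.91 ± 1.51 in BLM+HBO, and Cd163 at 3.20 ± 1.26 and 2.21 ± 0.488. Fth1 was at 305 ± 80.3 and 474 ± 170 on the same scale. Blvra, at 3.40 ± 0.674 and 6.34 ± 1.71, Blvrb, at 3.33 ± 0.581 and 6.68 ± 2.41, and Hp, at 95.7 ± 28.9 and 237 ± 96.9, had overlapping groups in CPM and were apart on this scale, higher in BLM+HBO. Hmox2, at 5.71 ± 1.42 and 11.6 ± 4.96, Ftl1, at 121 ± 33.4 and 213 ± 70.1, and Tfrc, at 5.99 ± 2.17 and 18.8 ± 12.5, overlapped. The divisor is lower in BLM+HBO by mean, with log2 fold changes of -1.01 for C1qa, -0.96 for C1qb and -1.11 for C1qc. The ratio of a level gene is therefore higher there. A gene that is lower by about as much as the divisor comes out near level, whichever cells express it. The share of all tested genes that would be apart on this scale was not counted. Nothing is therefore read from Blvra, Blvrb and Hp being apart on it, or from the overlap of Hmox1. The ratio shows unequal change between genes and does not say in which cells Hmox1 is expressed.

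**Figure D4:**
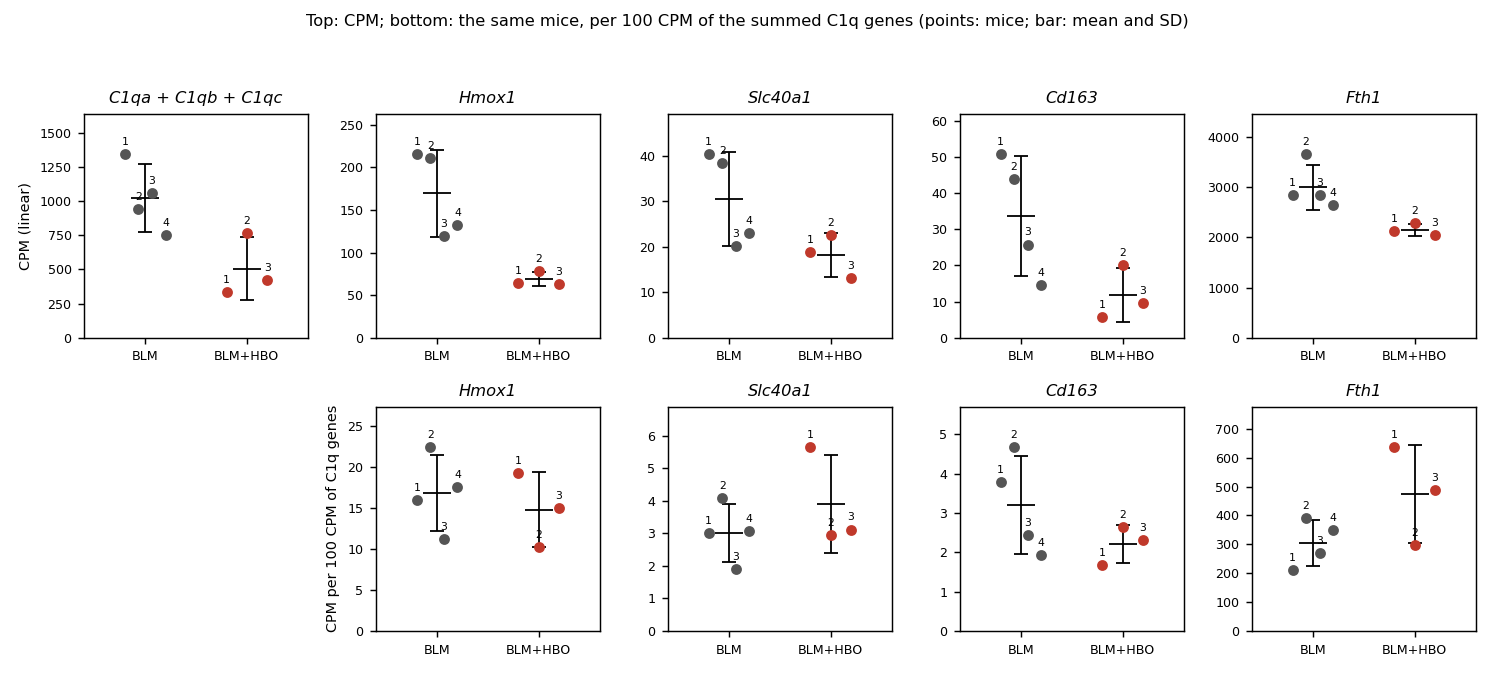
Levels in CPM (top) and per 100 CPM of the summed C1qa, C1qb and C1qc (bottom) for Hmox1, Slc40a1, Cd163 and Fth1, with the sum itself at the top left, 1 point per mouse labelled by its number and a bar for the mean and SD. The groups are apart in the CPM of Hmox1 and Fth1, and overlap in the ratios of these 4 genes. The divisor is itself lower in BLM+HBO by mean.

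Markers of other cells gave further values beside these genes, counted as called at unadjusted P below 0.05 and a fold change above 1.5 (2.89% of all tested genes on the lower and 3.40% on the higher side). Of 6 monocyte markers 1 was called lower and 0 higher, with a median log2 fold change of 0.19 and sums of 230 to 330 CPM in BLM and 179 to 457 CPM in BLM+HBO. Of 9 neutrophil markers 0 were called, with a median of 0.09 (182 to 257 and 111 to 591 CPM). Erythroid markers, whose cells carry hemoglobin, gave 0 calls among 8 tested, but all 8 had a higher mean in BLM+HBO, with a median of 0.42 and overlapping sums of 1413 to 3541 and 1852 to 3238 CPM. All 8 fibroblast markers had a lower mean and 5 were called lower, with a median of -0.73 (6541 to 10623 and 2320 to 6959 CPM). All 8 alveolar type 2 markers had a higher mean and 1 was called higher (9348 to 17022 and 11780 to 28743 CPM). Of 8 club and ciliated markers 6 had a higher mean and 3 were called higher (6008 to 12740 and 10004 to 19998 CPM). Of 8 endothelial markers 7 had a higher mean and 0 were called (2825 to 3464 and 2850 to 3395 CPM). The alveolar and endothelial markers were abundant in every library, which the lung label calls for. Of the erythroid list, Rhag was under the filter on low counts and Ahsp had no match among the symbols. The part of these cells in the members' results was not tested.

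Beyond the members, 53 of 56 listed heme and iron genes were tested, and Ftmt, Hephl1 and Hamp2 were under the filter on low counts. By edgeR's quasi-likelihood test 3 were lower and 0 higher in BLM+HBO at unadjusted P below 0.05 and a fold change above 1.5 (5.66%, against 6.29% of all tested genes), and 0 passed after adjustment. At unadjusted P below 0.05 and any fold 5 were lower, and DESeq2 called 1 after adjustment. Their median log2 fold change was -0.10, against 0.01 over all tested genes. All 3 belonged to iron uptake and reduction, where 11 of 14 genes had a lower mean and the median was -0.36. The count of 3 became 1 without BLM+HBO 1 and 9 without BLM+HBO 2.

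Ltf encodes lactoferrin, an iron-binding protein of secretions and neutrophil granules. It was at 108, 141, 152 and 150 CPM in BLM and at 72.9, 98.7 and 64.5 CPM in BLM+HBO, and the groups did not overlap. The log2 fold change was -0.81 (SE 0.17), with an unadjusted P of 0.000981 and an adjusted P of 0.423 by edgeR, and an adjusted P of 0.0113 by DESeq2. Slc39a14, a carrier of zinc and of iron not bound to transferrin, was at 113, 88.8, 91.2 and 97.8 CPM in BLM and 29.2, 96.2 and 43.2 CPM in BLM+HBO, with BLM+HBO 2 inside the BLM range. Its log2 fold change was -0.80 (SE 0.33, edgeR unadjusted P = 0.0389, adjusted P = 0.455), and it lost the call without any of the BLM mice, without BLM+HBO 1, without BLM+HBO 3 and with robust fitting. Steap1, of a family of metalloreductases, was at 4.74, 2.93, 5.11 and 3.63 CPM in BLM and 0.96, 2.54 and 2.74 CPM in BLM+HBO, with a log2 fold change of -0.97 (SE 0.38, edgeR unadjusted P = 0.0313, adjusted P = 0.441), and lost the call without BLM 1, BLM 3 or BLM+HBO 1 and with a replicate block, at -1.09 (SE 0.46).

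Heme synthesis gave 0 calls among 8 genes, and 6 of them had a higher mean in BLM+HBO, with a median log2 fold change of 0.10. Alas1, the rate-limiting enzyme of heme synthesis outside red cells, was at 0.36 (SE 0.16), and Cpox and Ppox were at 0.24 and 0.25. Heme binding and transport also gave 0 calls among 8 genes, with a median of 0.01. Hebp1, a small heme-binding protein, was at -0.50 (SE 0.13, edgeR unadjusted P = 0.00406, adjusted P = 0.423), short of the fold threshold, and its groups did not overlap. Lrp1, the receptor for hemopexin that carries heme, was at -0.56 (SE 0.25, edgeR unadjusted P = 0.0516, adjusted P = 0.471), and Pgrmc1 was at 0.26.

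The remaining groups gave 0 calls in either direction, and, like heme synthesis, 0 genes by edgeR at unadjusted P below 0.05 at any fold and 0 by DESeq2 after adjustment. Among 3 tested storage genes, the ferritin autophagy receptor Ncoa4 was at 82.7, 65.5, 42.9 and 50.1 CPM in BLM and 46.4, 51.5 and 40.9 CPM in BLM+HBO, with BLM 1 and BLM 2 highest as for Hmox1 and a log2 fold change of -0.38 (SE 0.21). The iron chaperones Pcbp1 and Pcbp2 were at -0.16 and -0.06. The ferroxidases Cp and Heph, which oxidise iron as ferroportin exports it, were at -0.32 and -0.15. Among 9 genes of iron sensing and the hepcidin axis the median was -0.12, with Bmp6 at 0.40, Fbxl5 at -0.25 and Neo1 at -0.23. Among 9 genes of mitochondrial iron and iron-sulfur clusters it was -0.01, with Slc25a37 at 0.20 and Iscu at -0.14.

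**Figure D5:**
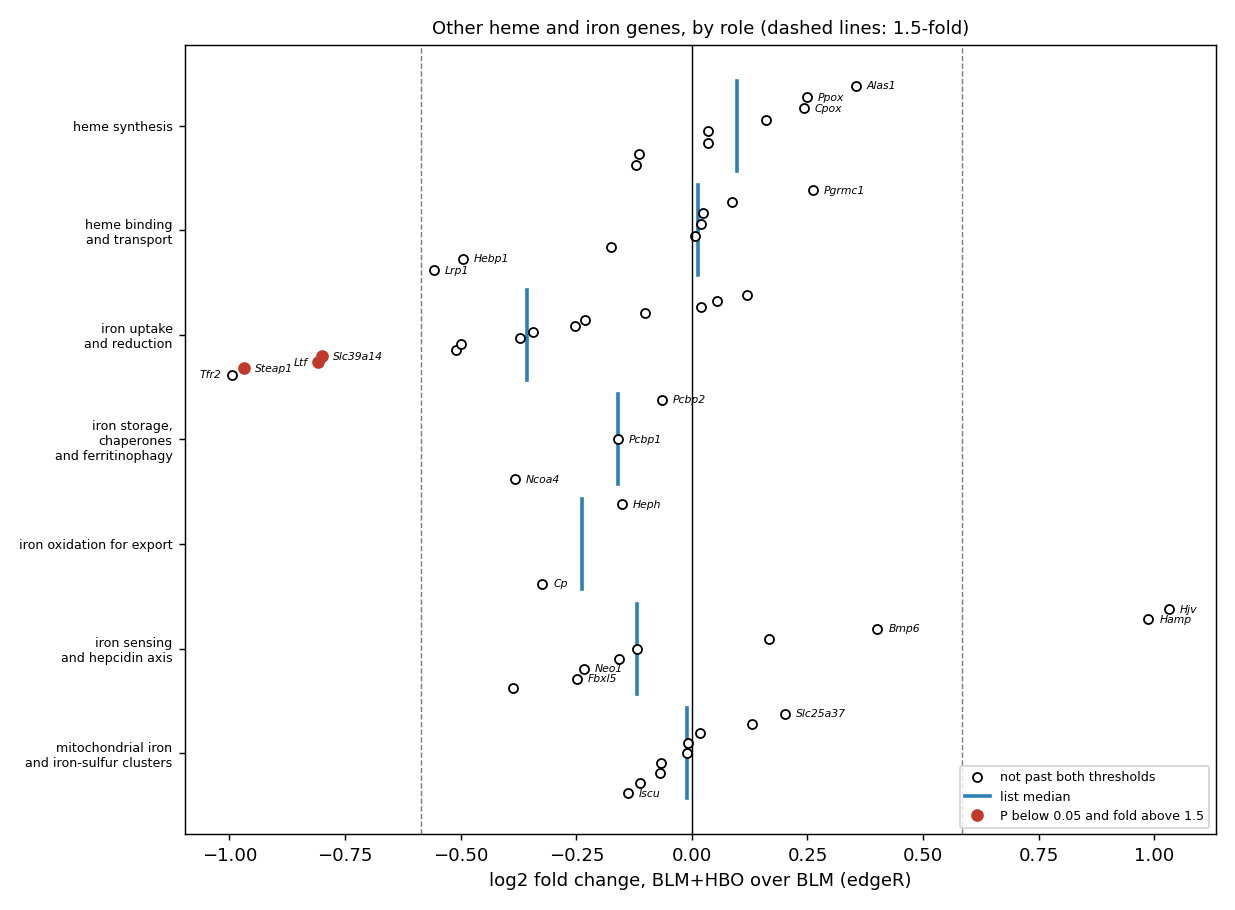
Log2 fold change of BLM+HBO over BLM from edgeR for the 53 other heme and iron genes that were tested, by role, with filled points for those at unadjusted P below 0.05 and a fold change above 1.5, a bar at each median and dashed lines at 1.5-fold. The filled points are Ltf, Slc39a14 and Steap1, all at iron uptake and reduction and all to the left of 0.

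Hmox1 is known to be repressed by BACH1 and induced by NRF2, and also by hypoxia-inducible factor (HIF). Of 6 genes of the BACH1 and NRF2 regulators 0 were called, with Bach1 at a log2 fold change of -0.04, Nfe2l2, which encodes NRF2, at -0.03, Keap1 at -0.04, Maff at -0.18 and Mafk at -0.05. Of 13 other NRF2 target enzymes 0 were called in either direction, and their median of -0.02 was near the 0.01 of all tested genes. Over all tested genes 6.29% were called, so 0 calls in lists of this length say little. For both lists edgeR gave 0 genes at unadjusted P below 0.05 and DESeq2 0 after adjustment. The summed level of the NRF2 target enzymes was 1594 to 1873 CPM in BLM and 1602 to 1851 CPM in BLM+HBO. Gclc, of glutathione synthesis, was at 0.36 (SE 0.17), the quinone reductase Nqo1 at 0.38 (SE 0.25) and Pgd at -0.15 (SE 0.10). Hmox1, at -1.31, lay below each of these values, but it was selected for its lower level, and its difference from them was not tested. RNA levels of the regulators do not measure their proteins, which were not analysed here.

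The HIF signature of 15 genes had 1 gene called lower and 0 higher (6.67%, against 6.29% of all tested genes). Its list was used by the study on these mice, so it is not independent evidence of direction. The called gene was the tubulin Tubb6, at -0.90 (SE 0.23, edgeR unadjusted P = 0.00371, adjusted P = 0.423). Eno1 and Pgam1, enzymes of glycolysis, were at -0.56 (SE 0.17, edgeR adjusted P = 0.423) and -0.46 (SE 0.14, edgeR adjusted P = 0.423), below the fold threshold. The median of the list was -0.32, and 6 of its genes were lower at unadjusted P below 0.05 at any fold. Over the 3 lists of regulators and their targets the count of 1 became 5 without BLM+HBO 2, and 2 without BLM 2, BLM 4 or BLM+HBO 3.

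RefSeq promoter windows on GRCm38.p6, from 250 bases before to 50 after the start, were at hand for 7 of the members, without Hmox1, Slc40a1 and Hp. TGACNNNGC, the core of the antioxidant response element bound by NRF2, was found on either strand in 12.4% of all 32851 windows and, among the members, only in that of Blvra. ACGTG, the core of the hypoxia response element, was found in 19.6% of all windows, in 1 of 2 for Blvrb, both for Tfrc and the single window of Cd163. Letters alone do not show a working site.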

How the data were processed

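Right lung lobes of 7 mice were sequenced as paired ends on an Illumina NovaSeq from NEBNext Ultra libraries, with 1 library per mouse. After trimming by Trim Galore and mapping to GRCm38, the authors deposited raw read counts per gene, not normalized. The submitters' processing notes name HISAT2 2.2.0 and featureCounts 2.2.0. Default counting ignores the strand and leaves out reads with several places or genes. Symbols came from GENCODE vM21, which named 55141 of 55401 genes.

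Low genes were removed by filterByExpr (at least 10 reads, total at least 15), and the rest were normalized by TMM and tested with edgeR 4.0.16 (quasi-likelihood, not robust, Benjamini-Hochberg adjustment over 17465 genes) under R 4.3.3, which was tested on simulated data. The standard error was derived from the F statistic. CPM were computed here on normalized library sizes. DESeq2 1.42.0, the study's tool, and limma-trend 3.58.1 (prior count 2) were alternatives, with RLE factors, no filter, a filter of 1 CPM in 3 mice, robust fitting, a replicate block, any fold change and leaving out each mouse. The thresholds of unadjusted P and fold change follow the study. Within groups, the chi-square per gene between libraries was 22.1 or more, above the sampling noise, so none was another library's reads split again. This value does not separate differences between mice from those of dissection or library preparation. The labels number the mice but do not say that they came from separate litters or cages.

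The members and lists were chosen with earlier results of these data known. Named were all members, the called genes of each pathway and regulator list (or the 3 of lowest P), markers beside a member's result and the 5 genes most like Hmox1 by mean absolute difference of centred log2 CPM. Some genes that this rule names are not reported here. Table columns of other samples numbered 0.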

Additional observations from a re-analysis of the deposited data

Results flagged for a closer look

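Nqo1, a quinone reductase and NRF2 target, had 1 BLM mouse far from the others. BLM 4 was at 2.82 log2 CPM, and the other BLM mice were between 3.07 and 3.11, and the gap to the nearest mouse took up 0.871 of the whole BLM range. This is above Dixon's critical value for 4 samples. Of the 39 groups of values examined, 1 passed this limit, where chance passes about 1 in 20.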

How the results depend on the processing

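All 140 values of the members under the 14 alternatives kept their sign and moved by less than 1 SD. This SD is that of log2 CPM between mice within groups, pooled over both groups. Leaving out 1 mouse can hardly move a fold change that far, so staying within it says little about stability. Tfrc still moved from 0.42 to 0.13 without BLM+HBO 1, and Hp from 0.21 to 0.01 without BLM+HBO 3. Fold changes from 7 mice leave wide errors for Slc40a1, Tfrc, Hp and Cd163. The number of members past both thresholds was 3 and ranged from 2 to 4 when a mouse was left out. Without a filter on low counts 1940 genes were called in place of 1098, and 1861 at any fold change, and leaving out a mouse gave 659 to 1914. At adjusted P below 0.05 the count of 0 became 128 with DESeq2 and 387 without a filter, and 0 to 267 when a mouse was left out. Of the pathway genes 3 were called, 5 at any fold change, and 1 to 9 when a mouse was left out. Of the regulator genes 1 was called, 6 at any fold change, and 1 to 5 when a mouse was left out. When a mouse was left out, the log2 fold change ranged from -0.16 to 0.036 for Mafk and from -0.11 to 0.017 for Keap1, above 0 only without BLM+HBO 1. With a replicate block over numbers 1 to 3, which leaves out BLM 4, 1253 genes and 2 regulator genes were called. The labels do not say that a number marks a shared litter or day, and the deviations of mice with the same number correlated at -0.008, -0.066 and 0.161, so the numbers were not taken to pair the mice. Of the BLM+HBO mice, only the mouse numbered 3 correlated best with its own number. The causes of these shifts were not tested. Bleomycin without HBO is the only reference here, and no protein or iron measurement was analysed.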
